A study of Mus musculus with 8 samples.

Results

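H3K27me3, the repressive histone mark laid down by Polycomb repressive complex 2, was examined over the genes of axon guidance ligands and receptors in mouse embryonic stem cells. The members were the protein-coding genes whose symbol begins as an Eph receptor, ephrin, semaphorin, plexin, Slit, Robo, netrin, netrin-G, Unc5 or neuropilin, each read from the 1 transcript interval that best matched its RefSeq span (overlap of at least 0.5 of the union). RefSeq holds 71 such genes, 50 of them on the chromosomes of the table, and all 50 had an interval, out of 13207 protein-coding genes and 50398 intervals in all. The other 21 lie on chromosomes that were not covered, and they were not analysed here. Shares and medians of all protein-coding genes, and comparisons of families, likewise cover only the chromosomes measured and not the whole genome. The set held 26 receptors (11 Eph receptors, 8 plexins, 3 Unc5 receptors, 2 neuropilins and 2 Robos) and 24 ligands (13 semaphorins, 6 ephrins, 4 netrins and 1 Slit).

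The cells were E14tg2a embryonic stem cells (129SV background) that stably carried cRAF-ErT2, a RAF kinase fused to a hormone-binding domain that 4-hydroxytamoxifen (4OHT) switches on, which drives ERK signalling. Cells with 2 h of 250 nM 4OHT were compared with untreated cells (0 h); each time had 1 library from clone A and 1 from clone B (n = 2), and the labels name no vehicle for the untreated cells. Common to both times was the culture: serum, LIF and the GSK3 inhibitor Chir99021 (2 µM), which for the 24 h before treatment gave way to 250 nM of the FGF receptor inhibitor PD173074, with LIF and serum retained. The labels do not say whether each library came from a culture of its own. The p-values therefore refer to the variation among these 4 libraries, part of which may be technical.

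Axon guidance genes steer growing nerve fibres and migrating cells. Ephrins are membrane-bound ligands of the Eph receptor tyrosine kinases; semaphorins signal through plexins, the secreted class 3 members with neuropilins as co-receptors; Slits repel through Robo receptors, and netrins attract or repel, with Unc5 receptors serving repulsion. In embryonic stem cells, Polycomb holds many developmental genes silent, most often at promoters rich in CpG dinucleotides.

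The promoters of 5 members are shown because they bracket the range of the set. Efna3 and Robo3 had the highest H3K27me3 density, Epha10 had the widest range of density along its length, and Epha2 and Sema4b had the lowest densities. Each runs from 250 bases before to 50 bases after a RefSeq start (RefSeq, GRCm38.p6, known as mm10). It is written 5′ to 3′ on the gene's strand, with every CG dinucleotide in capitals. For Robo3 the start used lies 260 bases inside the interval, so that the whole window falls within the interval. The start lies 29 bases inside for Sema4b, 21 for Efna3 and 0 for Epha10 and Epha2. The regions are chr3:89322890-89323189 (minus strand) for Efna3, chr9:37433126-37433425 (minus strand) for Robo3, chr4:124881535-124881834 (plus strand) for Epha10, chr4:141300971-141301270 (plus strand) for Epha2 and chr7:80186620-80186919 (plus strand) for Sema4b.
Efna3: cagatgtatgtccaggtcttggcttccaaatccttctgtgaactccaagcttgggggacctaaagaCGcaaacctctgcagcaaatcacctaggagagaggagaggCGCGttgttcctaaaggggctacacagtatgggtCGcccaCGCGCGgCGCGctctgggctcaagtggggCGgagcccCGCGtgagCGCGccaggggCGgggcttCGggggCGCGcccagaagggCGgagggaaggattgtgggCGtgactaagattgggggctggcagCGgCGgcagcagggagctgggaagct
Robo3: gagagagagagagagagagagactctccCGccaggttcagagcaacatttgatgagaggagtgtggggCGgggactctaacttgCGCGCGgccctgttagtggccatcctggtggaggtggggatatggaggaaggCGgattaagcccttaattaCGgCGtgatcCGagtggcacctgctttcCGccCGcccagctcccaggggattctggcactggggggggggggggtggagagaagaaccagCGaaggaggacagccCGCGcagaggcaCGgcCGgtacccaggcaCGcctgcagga
Epha10: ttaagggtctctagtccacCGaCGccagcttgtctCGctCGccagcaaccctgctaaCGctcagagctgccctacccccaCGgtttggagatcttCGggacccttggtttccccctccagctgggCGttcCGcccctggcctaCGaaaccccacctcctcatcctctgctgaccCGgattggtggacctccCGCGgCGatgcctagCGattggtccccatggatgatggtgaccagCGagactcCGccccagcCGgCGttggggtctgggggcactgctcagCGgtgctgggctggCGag
Epha2: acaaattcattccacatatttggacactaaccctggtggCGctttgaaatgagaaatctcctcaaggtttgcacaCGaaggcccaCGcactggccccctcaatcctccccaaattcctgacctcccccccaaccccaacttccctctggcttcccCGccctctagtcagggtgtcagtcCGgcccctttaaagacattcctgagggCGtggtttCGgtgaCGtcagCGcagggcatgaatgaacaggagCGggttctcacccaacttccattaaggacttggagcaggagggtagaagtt
Sema4b: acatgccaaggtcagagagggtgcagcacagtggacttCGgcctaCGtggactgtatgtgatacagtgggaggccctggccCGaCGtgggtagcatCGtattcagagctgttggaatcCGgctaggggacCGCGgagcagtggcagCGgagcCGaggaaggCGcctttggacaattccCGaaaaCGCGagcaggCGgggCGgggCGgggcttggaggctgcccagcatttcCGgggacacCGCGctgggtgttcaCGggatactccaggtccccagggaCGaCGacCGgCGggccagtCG
These windows held 22 CG dinucleotides in Efna3, 17 in Robo3, 21 in Epha10, 10 in Epha2 and 26 in Sema4b. The ratio of CG observed to that expected from base content was 0.752 in Efna3, 0.60 in Robo3, 0.664 in Epha10, 0.460 in Epha2 and 0.844 in Sema4b. Sema4b, with almost no mark, had the highest ratio of the 5.

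Density is given throughout as counts per kb of interval per 1000000 counts of the library's column total, and each value ± SD is over the 4 libraries unless stated. The median protein-coding gene stood at 0.286, and a gene at 4 times that (1.144) or more is called marked. Counts were taken over whole transcripts with their introns, so a mark confined to a promoter is diluted in a long gene. Densities were not corrected for input or for chromosome copy number. Those of the X-linked Efnb1, Plxna3 and Plxnb3 may therefore not compare directly with those of autosomal genes. The members' intervals ran from 4.64 kb (Efna4) to 577.8 kb (Sema6d) and held 110 to 37114 counts in a library. Column totals were 92518605 and 85062523 counts at 2 h (clones A and B), against 70378127 and 81279899 at 0 h. Of 11 stem cell marker genes 0 were marked, with a median of 0.113 and with Utf1 highest at 3.83 times the median gene, while 5 of 7 neural markers were marked, with a median of 2.90; of 7 fibroblast markers, Thy1 was marked, and of 4 housekeeping genes 0 were. These markers show where the mark lies and not whether a gene is expressed.

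Of the 50 members, 10 (20%) were marked, where 7.44% of all protein-coding genes were, and 41 stood above the median protein-coding gene, as did 6603 of the 13207 protein-coding genes. The marked members were 6 ligands, Efna3, Sema3b, Efna2, Sema7a, Sema3f and Efnb1, and 4 receptors, Robo3, Epha10, Epha8 and Plxnd1. The median density over the set was 0.559 ± 0.0155, 1.96 times the median gene. The ligands had a median of 0.822 ± 0.0841 with 6 of 24 marked, and the receptors 0.430 ± 0.0309 with 4 of 26 marked. Members ranged from 0.290 times the median gene (Epha2) to 8.65 times (Efna3).

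**Figure D1:**
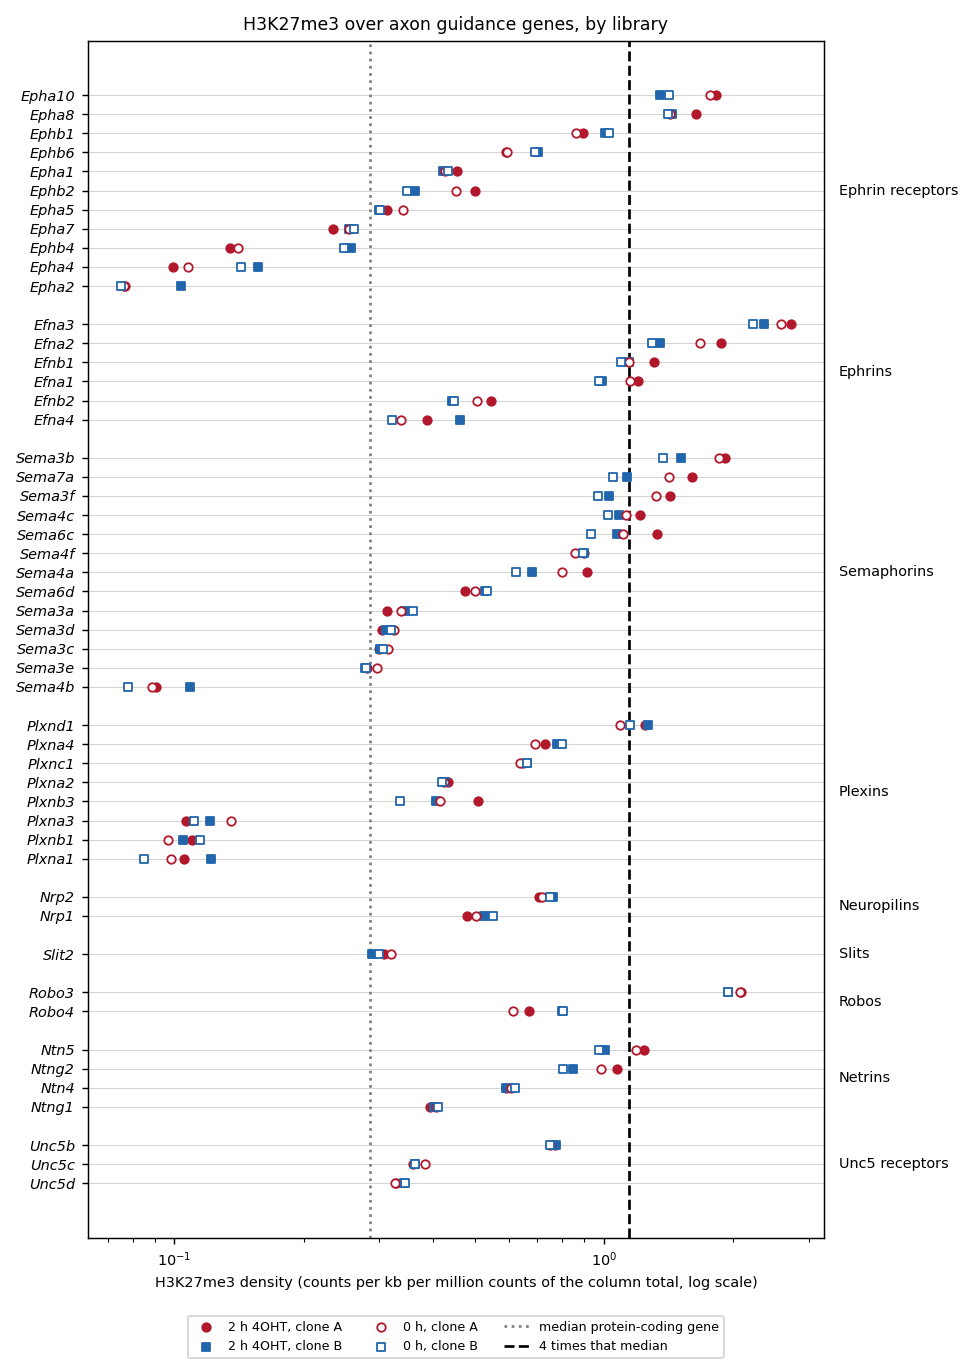
H3K27me3 density of each of the 50 members (x axis, counts per kb and 1000000 counts of the column total, log scale) in the 4 libraries, grouped by family. Filled symbols are 2 h of 4OHT and open symbols 0 h, circles clone A and squares clone B; the dotted line is the median protein-coding gene (0.286) and the dashed line 4 times that. The 4 libraries of a gene lie close together compared with the distance between genes, and 10 genes lie to the right of the dashed line on average.

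The 6 ephrins had the highest median of the families with at least 3 members, 1.13 ± 0.0971, and 3 of them were marked. Efna3 (ephrin-A3; chromosome 3, 89313899 to 89322960, mm10) was the densest member of the set and measured 2.73 and 2.35 at 2 h in clones A and B, against 2.58 and 2.23 at 0 h. Efna2, an A-type ephrin, measured 1.87 and 1.35 at 2 h in clones A and B, against 1.68 and 1.30 at 0 h. Efnb1, a transmembrane B-type ephrin encoded on the X chromosome, measured 1.31 and 1.15 at 2 h in clones A and B, against 1.14 and 1.10 at 0 h. Both clone A libraries lay above both clone B libraries for Efna3 and Efna2, and all 4 libraries of these genes lay above the limit; Efnb1 averaged 4.10 times the median gene, just past the limit, and only its 2 libraries at 2 h reached it.

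The sparsest ephrin was Efna4, which measured 0.387 and 0.462 at 2 h in clones A and B, against 0.337 and 0.321 at 0 h, 1.32 times the median gene. Efna4 is separated from Efna3 by only 10.4 kb on chromosome 3, and Efna1 lies 32.9 kb to the other side, so the densest and the sparsest ephrin are next to each other. Efna1 averaged 1.08 ± 0.114, just under the limit at 3.77 times. Efnb2, a B-type ephrin that marks arteries in the embryo, averaged 0.486 ± 0.0490.

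Among the 11 Eph receptors the median was 0.416 ± 0.0513, and the 2 marked genes were both of the A type. Epha10, whose kinase domain lacks activity, measured 1.83 and 1.35 at 2 h in clones A and B, against 1.77 and 1.42 at 0 h. Epha8 measured 1.64 and 1.44 at 2 h in clones A and B, against 1.43 and 1.41 at 0 h. For Epha10 the clone A libraries were the higher 2 and did not overlap with clone B, whereas for Epha8 the clone A library at 2 h stood above the other 3, which lay close together.

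Epha2 (chromosome 4, 141301221 to 141329384, mm10) was the lowest member of all and measured 0.0768 and 0.104 at 2 h in clones A and B, against 0.0762 and 0.0751 at 0 h. All 4 values lay far under the median gene, with clone B at 2 h the highest. Epha4, a receptor that binds ephrins of both types, averaged 0.126 ± 0.0275 and Ephb4, the receptor of ephrin-B2 in veins, 0.195 ± 0.0666. The other Eph receptors ran from Epha7 at 0.879 times the median gene over Epha5 (1.10), Ephb2 (1.46), Epha1 (1.52) and Ephb6 (2.26) to Ephb1 (3.31). Ephb1 is 433 kb long, so its density came from 26205 to 37114 counts. Of the Epha1 interval, 17.6% is shared with 2010310C07Rik, and the counts there cannot be told apart.

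The 13 semaphorins had a median of 0.756 ± 0.124 with 3 marked. Sema3b, a secreted repellent, measured 1.92 and 1.51 at 2 h in clones A and B, against 1.85 and 1.37 at 0 h. Sema7a, which is tethered to the membrane by a lipid anchor, measured 1.60 and 1.14 at 2 h in clones A and B, against 1.42 and 1.05 at 0 h. Sema3f, a secreted ligand of neuropilin-2 (chromosome 9, 107681502 to 107710475, mm10), measured 1.42 and 1.03 at 2 h in clones A and B, against 1.32 and 0.971 at 0 h. In all 3 genes both clone A libraries stood above both clone B libraries, and for Sema7a and Sema3f only the clone A libraries passed the limit.

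Sema3b and Sema3f lie 72.3 kb apart on chromosome 9, while the other 4 class 3 semaphorins measured lie on chromosome 5 and were not marked. Sema3a, Sema3c, Sema3d and Sema3e, all secreted, stood between 0.992 and 1.18 times the median gene, a narrow range in intervals of 155 to 481 kb. The membrane-bound Sema4c (3.89 times) and Sema6c (3.88) lay just under the limit, followed by Sema4f (3.11), Sema4a (2.64) and Sema6d (1.78). Sema4b, also membrane-bound, was the lowest ligand and measured 0.0904 and 0.109 at 2 h in clones A and B, against 0.0888 and 0.0778 at 0 h. Its values stood at 0.320 times the median gene on average, with both libraries at 2 h above both at 0 h and the clones overlapping.

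Of the 8 plexins, the semaphorin receptors, only Plxnd1 was marked, and the family median was 0.421 ± 0.0389. Plxnd1, a receptor of Sema3e that patterns blood vessels, measured 1.25 and 1.27 at 2 h in clones A and B, against 1.09 and 1.15 at 0 h. Plxna1, a receptor that pairs with neuropilins, measured 0.105 and 0.122 at 2 h in clones A and B, against 0.0982 and 0.0850 at 0 h. Both libraries at 2 h stood above both at 0 h for these 2 genes, while the level of Plxna1 was 0.359 times the median gene. Plxnb1 (0.372 times) and the X-linked Plxna3 (0.414) were as sparse, and Plxnb3 (1.46), Plxna2 (1.49), Plxnc1 (2.28) and Plxna4 (2.62) stood between. The plexins thus covered 0.359 to 4.16 times the median gene.

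The 2 neuropilins, co-receptors of class 3 semaphorins that also bind vascular endothelial growth factor, were not marked. Nrp2 measured 0.707 and 0.762 at 2 h in clones A and B, against 0.716 and 0.750 at 0 h. Nrp1 measured 0.481 and 0.526 at 2 h in clones A and B, against 0.504 and 0.553 at 0 h. In each case the 4 libraries lay within a narrow range, and of the Nrp1 interval 26.6% is shared with Gm32643 on the opposite strand.

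Robo3, a receptor that lets commissural axons cross the midline (chromosome 9, 37416123 to 37433435, mm10), was the densest receptor and measured 2.09 and 1.94 at 2 h in clones A and B, against 2.08 and 1.94 at 0 h. Robo4, an endothelial receptor that lies 2.10 kb from Robo3 on chromosome 9, measured 0.668 and 0.797 at 2 h in clones A and B, against 0.614 and 0.802 at 0 h. The 2 neighbours differed in every library, and clone A was the higher clone for Robo3 but the lower for Robo4. The 1 Slit measured here, Slit2, a repellent of midline-crossing axons, measured 0.308 and 0.289 at 2 h in clones A and B, against 0.319 and 0.299 at 0 h, 1.06 times the median gene over 325 kb.

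None of the 4 netrins and 3 Unc5 receptors was marked. Ntn5 measured 1.24 and 1.01 at 2 h in clones A and B, against 1.19 and 0.973 at 0 h, but 98.5% of its interval is shared with Sec1 on the opposite strand, so its counts are those of both genes. Ntng1, a lipid-anchored netrin-G, was the lowest netrin and measured 0.393 and 0.403 at 2 h in clones A and B, against 0.408 and 0.411 at 0 h. Ntng2 averaged 3.25 and Ntn4, a netrin of basement membranes, 2.11 times the median gene. Unc5b, a netrin receptor of neurons and vessels, measured 0.770 and 0.776 at 2 h in clones A and B, against 0.751 and 0.749 at 0 h. Unc5d measured 0.328 and 0.343 at 2 h in clones A and B, against 0.327 and 0.345 at 0 h. Unc5c, like Unc5d a long gene, stood at 1.28 times the median gene. For Unc5b both libraries at 2 h lay above both at 0 h, and for Unc5d both clone A libraries lay below both clone B libraries.

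Longer members had lower densities. Of 15 members under 20 kb, 5 were marked, and of 13 between 20 and 50 kb, 5, but 0 of 22 longer ones were. Among all protein-coding genes the shares marked in the same classes were 11.6%, 4.61%, 1.28% (50 to 150 kb) and 0.33% (over 150 kb). The members' medians were 1.10 under 20 kb, 0.756 from 20 to 50 kb, 0.668 from 50 to 150 kb and 0.353 above, beside 0.316, 0.228, 0.244 and 0.345 for all protein-coding genes. The members thus stood above the protein-coding median in each class below 150 kb and next to it in the longest class. Spearman's rho of density on length was −0.44 over the 50 members and −0.10 over the 13207 protein-coding genes; genes are not independent replicates, and all share the same 4 libraries.

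**Figure D2:**
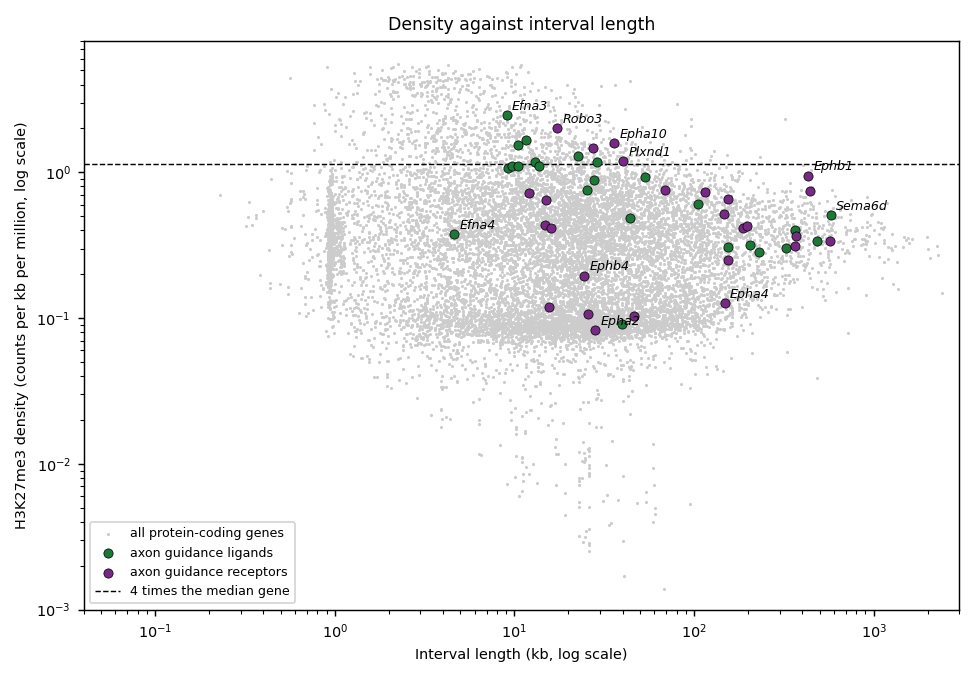
Mean H3K27me3 density over 4 libraries (y axis, counts per kb and 1000000 counts, log scale) against interval length (x axis, kb, log scale) for 13207 protein-coding genes (grey) and the 24 ligands (green) and 26 receptors (purple). All 10 members above the dashed line, 4 times the median gene, are between 9.06 and 40.2 kb long.

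Where a gene has several transcript intervals that share an end, the difference between them gives the density of the segment in between. Segments of at least 1000 bp could be read this way in 25 members, a description chosen after the values were seen. In 14 of them the densest segment was at least 2 times the least dense. In 17 of the 25 the segment at the 5′ end was the densest, and in 8 another one was. Neither count is given here for other protein-coding genes, and in a gene with 2 segments 1 of them must be the densest. Segments also differ in length: the 5′ one of Plxnd1 spans 38.4 of 40.2 kb. Some differences were within the SD, as in Sema4c with 1.60 ± 0.127 in its first segment and 1.58 ± 0.112 in the next. Epha10, Robo3, Sema3f and Sema4a were densest in their first few kilobases. The rest of Robo3 was also past the limit of a marked gene, and the last segment of the other 3 was under it.

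Epha10 had the widest range. Its first 4.72 kb measured 3.94 ± 0.549, 13.8 times the median gene, the next stretch to 18.1 kb 2.11 ± 0.345, and the last 4.60 kb 0.284 ± 0.0248. The promoter shown above for Epha10 adjoins the first of these segments. Robo3 measured 3.93 ± 0.428 over its first 1.40 kb, 2.20 ± 0.149 from there to 8.30 kb and 1.58 ± 0.0309 over the rest. In Robo3 the clone A libraries were the higher ones in the first segment, at 4.51 and 3.99 (2 h and 0 h), against 3.68 and 3.54 in clone B, while in the last segment all 4 lay between 1.54 and 1.62.

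Sema3f, at 4.15 times the median gene over its whole length, held 3.52 ± 0.393 from 0.494 to 4.88 kb and 0.729 ± 0.186 over the remaining 24.1 kb. Sema4a, which is not marked as a whole, reached 1.57 ± 0.351 in its first 2.39 kb, past the limit, and 0.560 ± 0.0796 beyond 5.95 kb. Sema4f likewise held 1.43 ± 0.0612 before and 0.642 ± 0.0102 after 8.89 kb. Even the sparse Plxna3 had 0.359 ± 0.0355 over its first 2.45 kb against 0.0657 ± 0.0116 beyond 4.80 kb.

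Some members ran the other way. In Sema6c the first 3.92 kb measured 0.260 ± 0.0740, near the median gene, and the last 7.0 kb 1.87 ± 0.345. Sema3b measured 0.759 ± 0.237 over its first 2.15 kb and 2.11 ± 0.316 beyond 3.84 kb, and the stretch from 9.23 to 11.0 kb held 3.41 ± 0.191. Sema6d, spread over 577.8 kb, measured 0.442 ± 0.0222 over the first 520.3 kb, and then 2.90 ± 0.0783 in a stretch of 1.51 kb that begins at the start of a shorter transcript, 10.1 times the median gene. The next 41.8 kb of Sema6d held 1.23 ± 0.0971, also past the limit. Of the 25 members with segments, 6 not marked as a whole held a stretch past the limit: Sema4a, Sema4f, Sema6c, Sema6d, Sema4c and Efna1. Sema4c held 1.60 ± 0.127 over its first 1.51 kb and Efna1 1.41 ± 0.103 over its first 1.31 kb. The limit was set on whole intervals, and the count is not given here for other protein-coding genes.

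**Figure D3:**
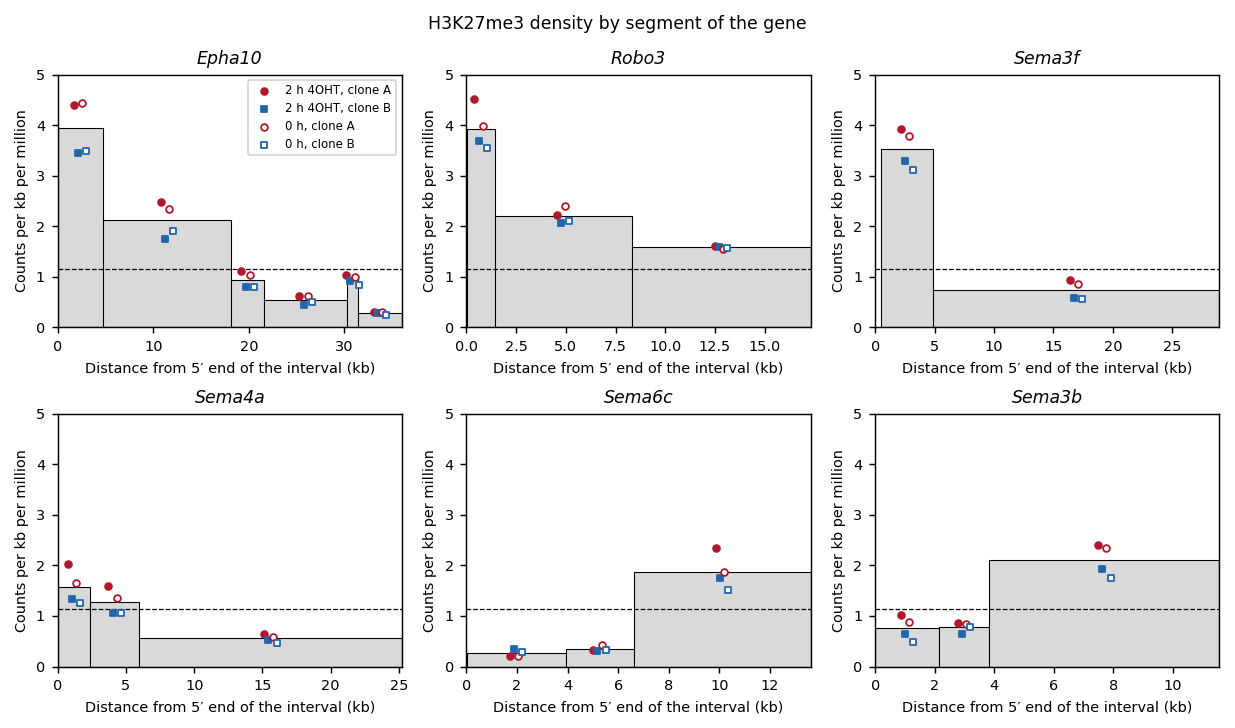
H3K27me3 density (y axis, counts per kb and 1000000 counts) by segment along 6 members, with distance from the 5′ end of the interval on the x axis (kb). Grey bars are means over 4 libraries, points the libraries (filled 2 h, open 0 h, circles clone A, squares clone B, set side by side in each segment), and the dashed line is the limit of a marked gene; the first 4 genes are densest at the 5′ end, and Sema6c and Sema3b towards the 3′ end.

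RefSeq promoters with a start within 1000 bp of the start of the interval were matched for 43 of the 50 members. Of these, 27 (62.8%) had a CG ratio of 0.6 or more, beside 50.6% of the 10112 protein-coding promoters matched. The motif was the dinucleotide CG, which reads the same on both strands. Among members at or above that ratio 7 of 27 were marked, and below it 1 of 16, Efnb1, whose ratio was 0.527. For all protein-coding genes the shares marked were 6.67% at or above the ratio and 7.10% below it. Epha8 had the highest ratio of the members, 1.06, and Robo4 the lowest, 0.106. Over the 43 members Spearman's rho between density and CG ratio was 0.01, and over the 24 of them shorter than 50 kb rho was 0.34. Over the 10112 protein-coding genes of all lengths rho was −0.34, to be set beside the 0.01 of the 43 members. A value for protein-coding genes under 50 kb is not given here. The ratio describes 300 bases and the density the whole transcript.

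The study's own comparison asked what 2 h of 4OHT does to the mark, and no member was found changed. The edgeR quasi-likelihood test over 50037 intervals called 0 of 50 members higher and 0 lower, with a background of 0.0% in each direction, and 0 of 50 members (188 of all intervals) had an unadjusted p under 0.05. DESeq2 called 0 as well, with 0 members and 2 intervals at that level. Both fits left clone out as a term, so differences between the clones added to their error. With clone as a block, edgeR also called 0 members. The median log2 change was 0.02 over the 50 members and 0.01 over all protein-coding genes. The members' values ran from −0.12 (Plxna3) to 0.36 (Efna4). For 40 of the 50 the 95% interval of the change lay within 1.5-fold either way, and for 49 of 50 with clone as a block.

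The 3 members with the smallest p in each direction, of those with the same sign in both clones, are given here, and none passed the test. Efna4, whose densities are given above, had a log2 change of 0.36 (SE 0.16), with 0.22 in clone A and 0.50 in clone B. It had the fewest counts of all members, 166 and 182 at 2 h, against 110 and 121 at 0 h. Plxna1 had 0.31 (SE 0.14) and Plxnd1 0.16 (SE 0.09). These SEs are from the fit without clone. With clone as a block they were 0.16 for Efna4, 0.10 for Plxna1 and 0.05 for Plxnd1. For Efna4, Plxna1 and Plxnd1 both libraries at 2 h lay above both at 0 h.

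In the other direction, Sema3a had a log2 change of −0.09 (SE 0.08), Epha7 −0.08 (SE 0.09) and Sema3d −0.07 (SE 0.08). Sema3a, a secreted repellent, had densities of 0.313 and 0.345 at 2 h in clones A and B, against 0.337 and 0.360 at 0 h. Epha7, an A-type Eph receptor, had 0.234 and 0.255 at 2 h in clones A and B, against 0.255 and 0.261 at 0 h. Sema3d had 0.304 and 0.312 at 2 h in clones A and B, against 0.325 and 0.319 at 0 h. For Sema3a and Epha7 the 2 times overlapped in range, and within each time clone A was the lower, while for Sema3d both libraries at 2 h lay under both at 0 h.

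By family, the median log2 change was 0.10 for ephrins, 0.09 for semaphorins, 0.02 for plexins, 0.02 for Robos, 0.01 for netrins, 0.00 for Eph receptors, −0.01 for Unc5 receptors, −0.04 for neuropilins and −0.05 for Slit2. Of the 50 members 19 were higher at 2 h in both clones, 12 lower in both, and 19 moved in opposite directions. The matching shares of protein-coding genes are not given here, so these counts do not set the members apart. With clone as a block, which pairs the libraries, 10 of 50 members had an unadjusted p under 0.05, all higher at 2 h, where the background was 3.36% of protein-coding genes higher and 0.992% lower. None of the 10 passed after adjustment by edgeR. They were Plxnb3, Sema6c, Plxnd1, Plxna1, Sema7a, Sema4a, Efna4, Sema4b, Ephb2 and Epha8, with log2 changes in that fit of 0.10 (Ephb2) to 0.36 (Efna4). The direction depended on the scaling: with factors from marked intervals in the same fit, 5 members were higher and 11 lower at that level, with backgrounds of 0.816% and 4.97%.

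**Figure D4:**
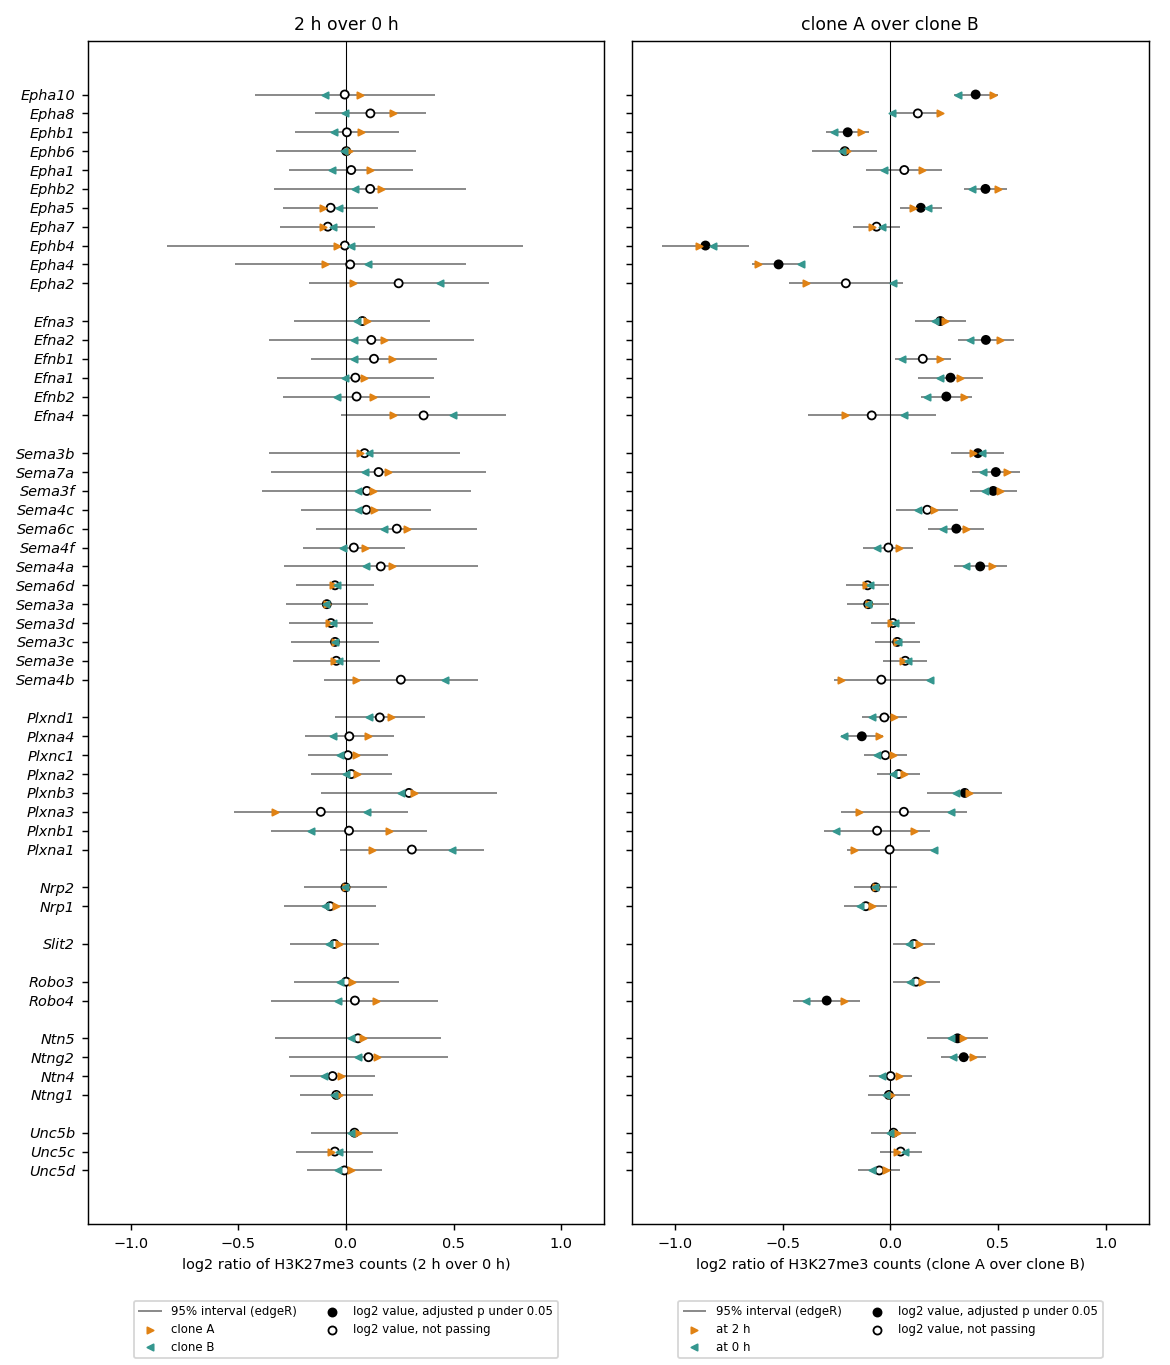
Log2 ratio of H3K27me3 counts for each member, 2 h over 0 h (left) and clone A over clone B (right), with 95% intervals from edgeR (lines, n = 2 libraries per side). Triangles give the ratio within each clone (left) or each time (right); filled circles have an adjusted p under 0.05, which 0 members have on the left and 21 on the right.

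The libraries differed more by clone than by time. Deviations of the members from their time means, set side by side for the libraries of each clone, correlated at r = 0.83 over the 50 members, which are not independent replicates. Clone A was compared with clone B over the same 4 libraries, each clone being represented by 1 library at 2 h and 1 at 0 h. Clone, immunoprecipitation and library preparation cannot be told apart in this comparison. edgeR called 15 of 50 members higher in clone A, where the background was 16.8% of protein-coding genes (17.3% of all intervals), and 6 lower, where it was 8.67% (10.3%). The members' own shares were 30% higher and 12% lower, and 29 members were not called.

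The count in each direction depended on the scaling, and marked genes as a whole were higher in clone A (median log2 difference 0.21, against −0.01 for other protein-coding genes). Marked is defined on the mean of the same 4 libraries, clone A included. With factors from marked intervals, which lowered the median over all intervals to −0.20, the calls were 8 higher (16%) and 23 lower (46%), with backgrounds of 4.99% and 36.0%. The same 8 members were called higher and the same 5 lower in all 4 scalings run (TMM, DESeq2 size factors, column totals, marked intervals). No member was called both ways. The share of protein-coding genes called in all 4 is not given here, so these counts have no background beside them. The 8 were the ephrin Efna2, the semaphorins Sema3b, Sema3f, Sema4a and Sema7a, the Eph receptors Epha10 and Ephb2, and the netrin-G Ntng2. The 5 were the Eph receptors Epha4, Ephb1, Ephb4 and Ephb6 and the endothelial Robo4. All 8, and of the 5 Epha4, Ephb4 and Robo4, were called also without any single library, whereas Ephb6 lost its call without each of the 4, and Ephb1 without clone A at 0 h. These fits leave 1 clone with a single library, which is assumed to vary like the 2 of the other clone, so a kept call is weak support.

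Ephb4 had the widest difference of the set. It had densities of 0.135 and 0.141 in clone A (2 h and 0 h), against 0.258 and 0.248 in clone B, a log2 difference of −0.86 (SE 0.10, adjusted p = 4.30e-15 by edgeR). The clones did not overlap, and the difference was −0.89 at 2 h and −0.82 at 0 h. Epha4 had 0.0992 and 0.107 in clone A (2 h and 0 h), against 0.156 and 0.143 in clone B, a difference of −0.52 (SE 0.06, adjusted p = 2.30e-14 by edgeR). Ephb1 had 0.892 and 0.861 in clone A (2 h and 0 h), against 1.01 and 1.03 in clone B, a difference of −0.20 (SE 0.05, adjusted p = 7.43e-04 by edgeR). Each of these 3 Eph receptors was lower in clone A at both times, although only Ephb1 stands above the median gene.

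Ephb2, a receptor of B-type ephrins, went the other way, with 0.501 and 0.453 in clone A (2 h and 0 h), against 0.364 and 0.347 in clone B, a difference of 0.44 (SE 0.05, adjusted p = 3.70e-16 by edgeR). The Eph receptors were thus split, with 3 called higher in clone A and 4 lower (2 and 6 with factors from marked intervals). Sema7a had a difference of 0.49 (SE 0.06, adjusted p = 1.23e-15 by edgeR) and Sema3f 0.48 (SE 0.06, adjusted p = 1.13e-15 by edgeR), from the densities given above, and in both genes the clones did not overlap. With factors from marked intervals these differences were 0.24 for Ephb2, 0.29 for Sema7a, 0.28 for Sema3f and −1.06 for Ephb4.

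By role, clone A had 11 of 24 ligands (45.8%) called higher and 0 lower, and 4 of 26 receptors (15.4%) higher and 6 (23.1%) lower, beside 16.8% and 8.67% of protein-coding genes. With factors from marked intervals the ligands had 6 higher (25%) and 7 lower (29.2%) and the receptors 2 (7.69%) and 16 (61.5%), beside 4.99% and 36.0%. Of the 10 marked members, clone A had 6 (60%) called higher and 0 lower, and 9 stood higher in clone A at both times. Marked is defined by the mean over these same 4 libraries, and Sema7a and Sema3f passed the limit only in their clone A libraries. These counts are therefore not independent of the clone difference. With factors from marked intervals, 5 of the 10 were called higher and 1 lower, against the same backgrounds. Members of high density leaned towards clone A (Spearman's rho 0.50 between density and log2 difference over the 50 members). The density includes the clone A libraries, and no such rho is given here for protein-coding genes. Marked protein-coding genes as a whole leaned the same way (median 0.21, against −0.01 for the others), and the share of them called is not given here. The 4 class 3 semaphorins of chromosome 5 had a median difference of 0.02 and the 3 Unc5 receptors 0.01, and none of these was called. Factors from marked intervals called Sema3a, Sema3c, Sema3d and all 3 Unc5 receptors lower in clone A, and column totals called Sema3a lower.

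Other genes of the pathway, from a list of 52 guidance cues, adhesion molecules and intracellular effectors, were measured for 34. Of these 4 (11.8%) were marked, with a median density of 0.383, beside 7.44% and 0.286 for all protein-coding genes. Among the 4 were Cxcl12, a chemokine that guides migrating cells, at 8.49 times the median gene, and its receptor Cxcr4 at 7.64. The other marked genes were the repulsive guidance molecule Rgma at 4.88 and the collapsin response mediator Dpysl4 at 4.87. Neo1, a receptor of netrins and Rgma, stood at 0.572, the kinase Abl1 at 0.554, the adaptor Nck2 at 0.534 and Enah, an actin regulator, was lowest at 0.345 times. No gene of this list was called between 2 h and 0 h in either direction (background 0.0%). Between the clones, the test called 12 (35.3%) higher and 5 (14.7%) lower in clone A, beside 16.8% and 8.67% of protein-coding genes. With factors from marked intervals it called 3 (8.82%) higher and 14 (41.2%) lower, beside 4.99% and 36.0%. The main calls were led by the adhesion molecule L1cam at a log2 difference of 0.76 (adjusted p = 2.28e-26 by edgeR) and, in the other direction, Flrt3, an adhesion molecule that binds Unc5 receptors, at −0.61 (adjusted p = 2.22e-09 by edgeR).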

How the data were processed

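The deposited table holds raw counts of H3K27me3 ChIP-seq reads over transcript intervals for 4 libraries, from chromatin fixed for 10 min in 1% formaldehyde. Per the submitters' processing notes the authors used Bowtie2, bedtools and mm10; tool versions, read filters and strand handling were not given in the sources used here. Of the samples, the 4 input libraries were not analysed here, and 16 further columns of per-sample or group values were not used.

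Intervals were named from RefSeq by overlap over union of at least 0.5. Density is the count per kb of interval for each 1000000 counts in the column, with 0.286 the median of 13207 protein-coding genes. Changes were tested with edgeR 4.0.16 (R 4.3.3; TMM, filterByExpr, quasi-likelihood, Benjamini-Hochberg over 50037 intervals at 0.05), and with DESeq2 1.42.0 as an alternative; scripts were tested on simulated data. Intervals of 1 gene overlap, so they are not independent. The range of column totals, 70378127 to 92518605, gave members at least 110 counts.

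Values in each library are given for marked members and for the highest and lowest of each family; for each contrast, up to 3 members per direction with the smallest p and the same sign in both pairs of libraries are named. Members and lists were chosen with earlier results of these data known. Clones pair the libraries per the labels. Deviations of the 2 libraries of a clone from the time means correlated at 0.53 over 50037 intervals and 0.69 over the 42201 with a mean count of at least 100, so the fit with clone as a replicate block was also run. Alternatives were other scalings, no count filter, 1 interval per gene, the block, other density limits and gene matches, and leaving out each library. The block combined with factors from marked intervals was chosen after seeing the data.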

Additional observations from a re-analysis of the deposited data

Results flagged for a closer look

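The 2 clones differed in sign for the median log2 change of the full set of members and of 9 groups within it (2 h over 0 h), each clone having 1 library per time, and the difference was not tested. Over all 50 members clone A had a median of 0.0663 and clone B of −0.0054, a difference of 0.0717. For the Eph receptors clone A had 0.0308 and clone B −0.0079, a difference of 0.0387. For the Robos clone A had 0.0843 and clone B −0.0316, a difference of 0.1159. For the netrins clone A had 0.0285 and clone B −0.0162, a difference of 0.0447. In the Unc5 receptors clone A had 0.0259 and clone B −0.0325, a difference of 0.0584. Receptors as a whole had 0.0491 in clone A and −0.0179 in clone B (difference 0.067). Among subgroups, the B-type ephrins had 0.1693 in clone A and −0.0016 in clone B (difference 0.1709), and the A-type Eph receptors 0.0308 in clone A and −0.0337 in clone B (difference 0.0645). The classical netrins Ntn4 and Ntn5 had 0.0285 in clone A and −0.0383 in clone B (difference 0.0668), and the netrin-G genes 0.0554 in clone A and −0.0008 in clone B (difference 0.0562). These groups share members. No median within each clone is given here for other protein-coding genes, so the split cannot be read as particular to the members. Groups of 2 libraries are too small for a check of single libraries that stand apart.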

How the results depend on the processing

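For 2 h against 0 h the count of members called was 0 higher and 0 lower in each alternative run, the replicate block included. Over all intervals it was 0 in each as well, with 1 exception: 1 interval was called lower without the 2 h library of clone A (range over the 4 left-out libraries 0 to 1). For clone A against clone B, factors from marked intervals gave 8 members higher and 23 lower, and leaving out 1 library gave 11 to 17 higher and 3 to 8 lower (3 without the 0 h library of clone A), against 15 and 6. Over all intervals the counts were 8633 higher and 5132 lower; DESeq2 gave 5731 and 3049, factors from marked intervals 2601 and 20134, and 1 interval per gene (fewer intervals tested) 3195 and 2120. Leaving out 1 library gave 5252 to 8087 higher (5252 without clone B at 2 h) and 3414 to 4398 lower (3414 without clone B at 0 h), and the cause was not tested. The factors from marked intervals lowered the median over all intervals to −0.20 on the log2 scale by construction. With 2 times the median gene as limit 25 members were marked, and with 8 times 1 was, in place of 10. Leaving out 1 library gave 8 marked members (without clone A at 2 h) to 13 (without clone B at 0 h). Where a left-out library left an arm with 1, that library was assumed to vary like the others. With 2 libraries per time, 1 immunoprecipitation each and no input used, small changes were not detectable.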

Other observations

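Of the transcripts that overlap a member, some had a density well apart from it and others were close. At Ntng2, 6530402F18Rik covers 5.59% of the interval on the same strand and had a density of 3.0, where Ntng2 as a whole had 0.928. On the opposite strand to Epha10, 1700125G02Rik covers 10.8% of the interval and had 2.19. On the opposite strand to Epha1, 2010310C07Rik covers 17.6% and had 2.22, while Zyx, covering 11.7%, had 0.622. Over Nrp1 (0.516), Gm32643 had 0.421, and over Plxna2 (0.426), Gm46202 covers 16.8% and had 0.388, both close to the member. In all, 16 of the 50 members are overlapped by another gene, 6 of them over more than 10% of their interval. Each density is the highest over the whole intervals of the overlapping gene, which can reach beyond the member. Reads in the shared stretch count for both genes, and the density of that stretch alone is not given here.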
